A study of Mus musculus with 74 samples.

Results

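The fatty acid synthesis genes followed here are 10 genes of the pathway that turns citrate into fatty acids: Acly, Acaca, Acacb, Fasn, Elovl6, Scd1, Scd2, Me1, Thrsp and Srebf1. They were listed by symbol as genes of the pathway, with earlier results of these data known, and all 10 were measured among 18193 genes. Together they had 25 of the 34945 probe sets that carry a single gene symbol. A probe set is the group of short oligonucleotides on the array that reports one transcript. Male B6C3F1 mice received fenretinide, a synthetic retinoid, at 500 mg/kg in the diet, troglitazone, an activator of the nuclear receptor PPARγ, at 1200 mg/kg orally, or Elmiron, the sulfated polysaccharide pentosan polysulfate, at 1000 mg/kg orally. The study asked about hemangiosarcoma, a tumour of blood vessel lining cells, and profiled tissues in which it arises after 15 and 29 days of dosing. White fat of the fenretinide study came from 3 treated and 3 vehicle mice on day 15, and from 4 treated and 4 vehicle mice on day 29. Brown fat and liver in the troglitazone study, and liver in the Elmiron study, each came from 5 treated and 5 vehicle mice on each day. These make 16 groups and 74 arrays, 1 per mouse and tissue. Each compound had a study and vehicle mice of its own, so compound, dose and study cannot be told apart.

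De novo fatty acid synthesis runs in the cytosol. ATP citrate lyase (Acly) splits citrate to acetyl-CoA, acetyl-CoA carboxylase (Acaca) makes malonyl-CoA from it, and fatty acid synthase (Fasn) joins these units to palmitate with NADPH, part of which comes from malic enzyme (Me1). Elovl6 lengthens palmitate to stearate, and the stearoyl-CoA desaturases (Scd1 and Scd2) add the first double bond. Acacb encodes the acetyl-CoA carboxylase of the mitochondrial surface, whose malonyl-CoA restrains the entry of fatty acids into mitochondria. Thrsp encodes a small protein that is induced by thyroid hormone and carbohydrate and promotes lipogenesis, and Srebf1 encodes SREBP1, a transcription factor that drives most of these genes. The pathway is active in liver after carbohydrate feeding and in both kinds of fat.

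By the RefSeq table of the GRCm38.p6 build, Srebf1, Acaca, Acly and Fasn lie on chromosome 11, Scd1 and Scd2 are neighbours on chromosome 19, and Elovl6, Acacb, Thrsp and Me1 lie on chromosomes 3, 5, 7 and 9. The table had promoter windows for 8 of the 10 genes, 11 windows in all, each running from 250 bases before to 50 bases after a start. The 250 bases before the start are shown for Fasn, the enzyme that gives the pathway its product, and for Thrsp, which had the largest troglitazone difference in liver. Both genes are on the minus strand, and the sequences are written 5′ to 3′ along the gene. Capitals mark CCAAT, the letters of an NF-Y motif, on either strand (written ATTGG where it lies on the strand opposite the gene).
Fasn, chr11:120824548-120824797: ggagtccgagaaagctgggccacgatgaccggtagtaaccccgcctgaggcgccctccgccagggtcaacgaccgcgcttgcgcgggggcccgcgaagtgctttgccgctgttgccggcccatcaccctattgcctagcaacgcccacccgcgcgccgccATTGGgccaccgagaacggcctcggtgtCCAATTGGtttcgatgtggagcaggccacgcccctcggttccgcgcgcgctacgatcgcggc
Thrsp, chr7:97417551-97417800: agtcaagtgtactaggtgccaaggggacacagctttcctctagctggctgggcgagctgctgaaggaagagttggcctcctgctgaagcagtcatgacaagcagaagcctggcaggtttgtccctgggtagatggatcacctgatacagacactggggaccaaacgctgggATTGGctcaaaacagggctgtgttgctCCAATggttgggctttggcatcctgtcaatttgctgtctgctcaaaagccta
Counted from the start, the 3 matches in Fasn began at positions -90, -62 and -59, the last pair overlapping, and the 2 in Thrsp at -79 and -52. Over the whole windows, CCAAT was present on one strand or the other in 6 of the 8 genes (7 of 11 windows), against 37.4% of all 32851 windows. The Sp1 letters GGGCGG were present in 3 of the 8 genes (4 of 11 windows), against 35.7% of all windows. The SREBP letters TCACNCCAC, the E-box CACGTG and the LXR motif, a direct repeat of AGGTCA with 4 bases between, were in none of the 11 windows, and in 1.24%, 7.15% and 0.0152% of all windows. These matches describe letters, not bound sites.

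All values below are log2 of the deposited linear intensity, on which 1 unit is a doubling. Each gene is read from the brightest of its probe sets over all arrays, and levels of different genes are not compared, since probe sets differ in their response. A change was called where limma's Benjamini-Hochberg adjusted p over all 18193 genes was below 0.05. Array medians ran from 6.8 to 6.94. In bulk tissue, fewer cells of a type and less RNA per cell cannot be told apart.

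Some libraries carried markers of another tissue, and they bear on the values of these genes. Hepatocyte markers (9 measured) averaged 14.81 to 14.94 in every liver array. Brown adipocyte markers (8 measured, Ucp1 and Cidea among them) averaged 12.48 to 12.88 in 18 of the 20 brown fat arrays, but 8.14 in troglitazone mouse 95 and 7.12 in vehicle mouse 82 of day 29, where white adipocyte markers (4 measured) averaged 11.60 and 11.33, against 7.6 to 8.8 in the other 18. Vehicle mouse 82 also had hepatocyte markers at 13.23. The other 18 brown fat arrays had skeletal muscle markers (5 measured) at 9.86 to 14.42. Pancreas markers (4 measured) reached 9.69 in brown fat of troglitazone mouse 55 of day 15, with mouse 54 next at 8.28. In white fat of day 29, brown adipocyte markers averaged 11.78 and 9.33 in fenretinide mice 93 and 91 and 9.93 and 9.04 in vehicle mice 85 and 86, the 4 arrays that also had skeletal muscle markers at 9.18 to 11.75, and hepatocyte markers averaged 12.81 and 10.81 in fenretinide mice 95 and 93 and 11.79 in vehicle mouse 86. Epithelium markers (8 measured) averaged 9.51 to 10.76 in the fenretinide white fat of day 15, against 6.45 to 7.31 in the vehicle white fat. Among livers, Elmiron mouse 92 of day 29 had the highest adipocyte markers (5 measured), at 7.77, and the highest brown adipocyte markers, at 7.89. Results that rest on these libraries are given with and without them where that changes a call.

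None of the 10 genes changed by the test in any of the 8 settings of tissue, agent and day in which treated and vehicle mice were compared. The share of all genes called was 3.95% and 1.34% in white fat after fenretinide on days 15 and 29, 0.0605% and 0.055% in brown fat after troglitazone, 0.022% and 0.115% in liver after troglitazone, and 0% and 0.0055% in liver after Elmiron. In the brown fat and liver comparisons, then, very few genes of any kind were called, which in brown fat rested on 2 arrays. Without brown fat mice 95 and 82, 0.951% and 1.09% of all genes were called in brown fat. The smallest adjusted p of the 10 genes by limma was 0.106, that of Acacb in liver after 29 days of troglitazone. At an unadjusted limma p below 0.05 stood 3 of the 10 genes on day 15 and 5 on day 29 in liver after troglitazone, where 4.3% and 10.2% of all genes did. It was 1 of the 10 genes in white fat on day 29 (14.8% of all genes) and in Elmiron livers on days 15 and 29 (5.48% and 8.3%), and 0 in white fat on day 15 (19.7%) and in brown fat on days 15 and 29 (3.75% and 6.01%).

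**Figure D1:**
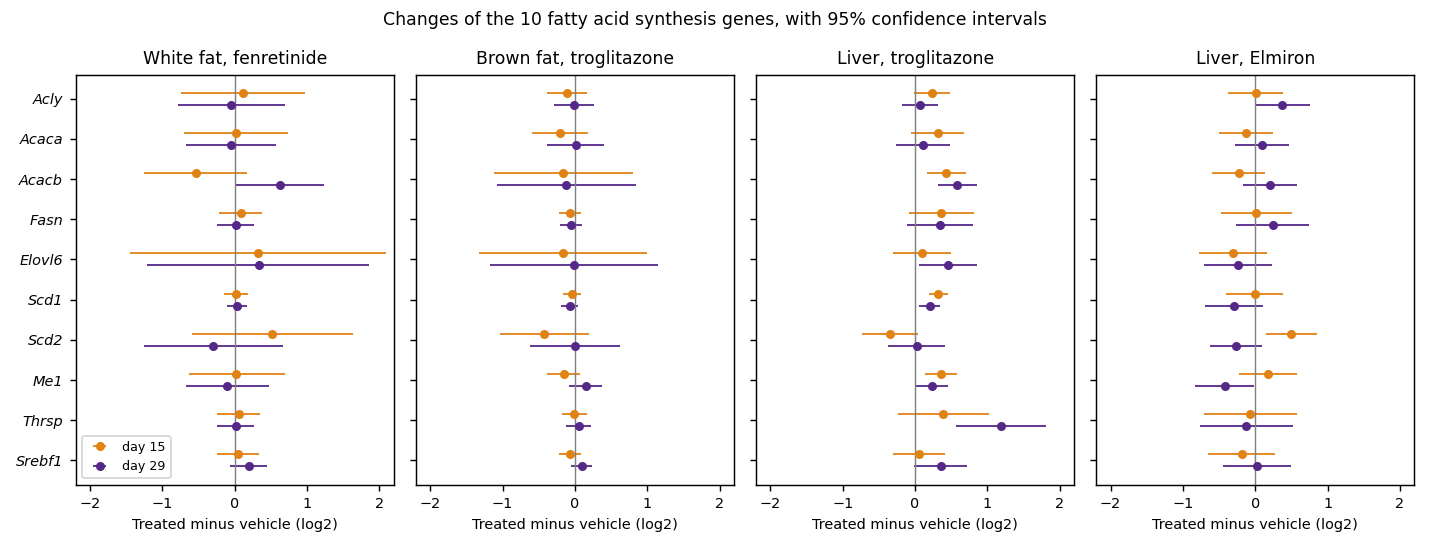
Log2 difference between treated and vehicle mice for each of the 10 genes, with its 95% confidence interval from limma, in white fat, brown fat and the livers of both studies. Orange points are day 15 and purple points day 29. The points of liver after troglitazone lie above 0 for 9 of 10 genes on day 15 and for 10 of 10 on day 29, with Thrsp at 1.19 on day 29, and no point was called at an adjusted p below 0.05.

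In liver, troglitazone came with higher mean values of nearly all of these genes, though no single difference passed the test over all genes. The difference was above 0 for 9 genes on day 15, with a median of 0.32, and for 10 genes on day 29, with a median of 0.29. Over all genes the medians were -0.01 and 0. These 10 genes are not independent, since 6 of the other 9 varied with Fasn between mice of a group in these livers. The vehicle livers of the troglitazone study were likewise above those of the Elmiron study for all 10 genes, by 0.10 to 0.39. On day 15 the values of treated and vehicle livers did not overlap for Scd1, Acacb and Me1, 3 of the 10 genes, where 2.09% of all genes did not overlap. On day 29 they did not overlap for Scd1 and Thrsp, 2 of the 10 genes, against 1.07% of all genes.

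Acly, Acaca and Fasn were not called by the test in liver after troglitazone on either day. Acly, the source of cytosolic acetyl-CoA, averaged 12.32 ± 0.22 in treated and 12.09 ± 0.22 in vehicle livers on day 15, and 12.26 ± 0.15 and 12.20 ± 0.20 on day 29 (SD, n = 5 each). Acaca averaged 10.39 ± 0.30 in treated and 10.08 ± 0.18 in vehicle livers on day 15, and 10.65 ± 0.36 and 10.54 ± 0.37 on day 29. Both differences were within the spread between mice on day 29 and about as large as it on day 15. Fasn, the synthase itself, read 11.74, 11.30, 12.48, 12.08 and 11.57 in treated livers on day 15, against 11.26, 11.13, 11.98, 11.54 and 11.46 in vehicle livers. The day 29 values were 12.22, 12.51, 12.35, 12.01 and 11.56 in treated livers, against 11.86, 11.72, 12.28, 11.93 and 11.14 in vehicle livers. The groups overlapped on both days, and the differences of 0.36 ± 0.22 and 0.35 ± 0.22 (SE) had adjusted p = 0.957 and 0.603 by limma.

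Acacb, the mitochondrial carboxylase, had differences of larger size than Acaca, though the genes were not tested against each other. Its 5 treated livers read 10.05, 10.11, 10.27, 10.05 and 10.17 on day 15, against 9.84, 9.51, 9.84, 9.69 and 9.61 in vehicle livers. On day 29 the treated livers read 10.40, 10.42, 10.26, 10.07 and 9.79, against 9.69, 9.63, 9.89, 9.76 and 9.09 in vehicle livers. The groups were apart on day 15, and on day 29 only the lowest treated liver, mouse 96, fell below the highest vehicle liver. The differences were 0.43 ± 0.13 and 0.58 ± 0.13 (SE), with limma adjusted p = 0.858 and 0.106. Without mouse 96 the day 29 difference was 0.68 and passed (adjusted p = 0.0400), the single array whose removal led to a call among the 10 genes of that comparison.

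Thrsp had the largest difference. Its treated livers of day 29 read 13.10, 14.23, 13.78, 13.83 and 13.10, against 12.54, 11.79, 13.06, 13.02 and 11.70 in vehicle livers. Every treated liver was above every vehicle liver, with the lowest treated value, 13.10, close to the highest vehicle value, 13.06. The difference of 1.19 (SE 0.30, 95% confidence interval 0.56 to 1.81, 2.275-fold) ranked 9th in size among the 18193 genes, and its adjusted p by limma was 0.19. The vehicle livers spread over more than 1 unit. Its second probe set gave 1.41 (adjusted p = 0.138 over all probe sets). On day 15 the treated livers read 12.50, 13.33, 13.65, 13.75 and 13.22, against 11.95, 13.08, 13.44, 13.06 and 12.95 in vehicle livers, with overlap and a difference of 0.39 ± 0.30 (SE, adjusted p = 0.957).

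The remaining genes gave smaller or less even differences in liver after troglitazone. Me1, which supplies NADPH, read 12.81, 12.81, 12.82, 12.98 and 13.04 in treated livers on day 15, against 12.65, 12.38, 12.62, 12.50 and 12.49 in vehicle livers. The groups were apart and the difference was 0.36 ± 0.11 (SE, limma adjusted p = 0.784). On day 29 the Me1 difference was 0.23 and the groups overlapped. Elovl6, the elongase, gave 0.10 on day 15 and 0.45 on day 29 (limma adjusted p = 0.97 and 0.452). Srebf1, the transcription factor, gave 0.05 and 0.36 (adjusted p = 0.983 and 0.494). Scd2 stayed low in liver, at 6.60 ± 0.30 in treated and 6.94 ± 0.26 in vehicle livers on day 15 (SD, n = 5 each), and gave -0.35 and 0.02.

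**Figure D2:**
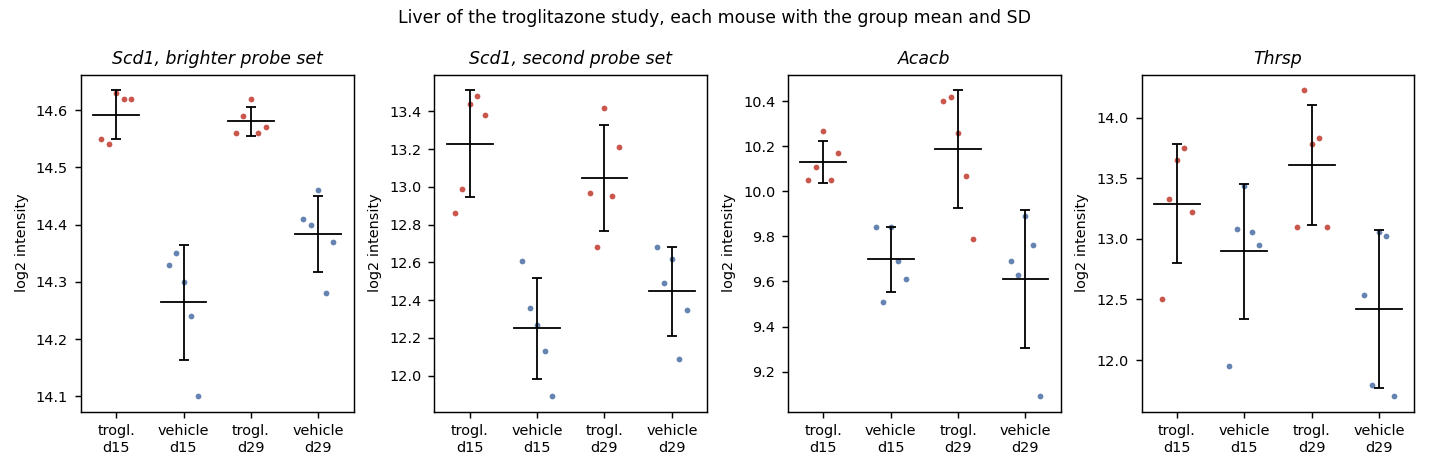
Log2 intensity of each troglitazone-study liver for Scd1 by its brighter and its second probe set, for Acacb and for Thrsp, with treated livers (red) left of vehicle livers (blue) on days 15 and 29 and the group mean with its SD. The second Scd1 probe set shows the widest gap between treated and vehicle livers on day 15, with means 0.98 apart.

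Scd1, the main desaturase of liver and fat, was the gene whose result depended on the probe set. By its brighter probe set the treated livers of day 15 read 14.55, 14.54, 14.63, 14.62 and 14.62, against 14.33, 14.35, 14.30, 14.24 and 14.10 in vehicle livers. The groups were apart, with a difference of 0.32 ± 0.07 (SE, limma adjusted p = 0.144). On day 29 the treated livers read 14.56, 14.59, 14.62, 14.56 and 14.57, against 14.41, 14.40, 14.46, 14.28 and 14.37 in vehicle livers, again apart, by 0.20 ± 0.07 (adjusted p = 0.402). This probe set averaged 14.58 over all arrays, where the highest log2 value of any probe set and array was 15.27.

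The second Scd1 probe set, which averaged 13.39, was singled out after its values were seen. It read 12.86, 12.99, 13.44, 13.48 and 13.38 in treated livers on day 15, against 12.61, 12.36, 12.27, 12.13 and 11.89 in vehicle livers. All treated livers were higher, and the difference of 0.98 ± 0.15 (SE) passed the test over all 34945 probe sets (limma adjusted p = 0.00936), as 1 of the 25 probe sets of these genes, where 0.0372% of all probe sets passed. Of the 10 arrays left out in turn, 4 ended the call, troglitazone mice 55 and 56 and vehicle mice 45 and 46 (adjusted p = 0.0506 to 0.0582), with differences of 0.89 to 1.07 over the 10. On day 29 this probe set read 12.97, 12.68, 13.42, 12.95 and 13.21 in treated livers, against 12.68, 12.49, 12.62, 12.09 and 12.35 in vehicle livers, which met at 12.68, and the difference of 0.60 ± 0.15 did not pass (adjusted p = 0.254). Why the probe sets differ in size was not tested.

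Over all 25 probe sets of the 10 genes, that Scd1 probe set was the single one called in the 8 comparisons of agent with vehicle. In liver after troglitazone 18 probe sets were above and 6 below 0 on day 15, and 21 above and 2 below on day 29, when 0.0715% of all probe sets were called. In brown fat 2 were above and 23 below on day 15 and 11 above and 12 below on day 29 (0.0486% and 0.0315% of all probe sets called). In liver after Elmiron 12 were above and 12 below on day 15 and 9 above and 15 below on day 29 (0% and 0.00286%). In white fat after fenretinide 18 were above and 6 below on day 15 and 17 above and 8 below on day 29 (3.26% and 1.16%). Probe sets of one gene report the same transcripts and are not independent. The widest difference between probe sets of a gene in brown fat was that of Elovl6, whose dimmest probe set, with a mean of 7 over all arrays, gave -1.27 and -1.06 (limma adjusted p = 1 and 0.919), against -0.17 and -0.02 by the brightest.

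In brown fat of the troglitazone study none of these genes was called. On day 15 all 10 differences were below 0, from -0.43 to -0.01 with a median of -0.13, while the median over all genes was 0. Acaca was the 1 gene of 10 whose groups did not overlap, where 3.25% of all genes did not. It read 14.21, 14.05, 14.21, 14.22 and 13.87 in treated brown fat, against 14.35, 14.27, 14.24, 14.36 and 14.37 in vehicle brown fat. The difference was -0.21 ± 0.19 (SE, limma adjusted p = 1), an SE that the 2 day 29 libraries with white fat markers enter through the shared estimate of spread. On day 29 the differences ran from -0.12 to 0.15, 4 above and 5 below 0, none of the 10 genes was without overlap (0.759% of all genes were), and Scd1 read 14.92 ± 0.07 in treated and 15.00 ± 0.05 in vehicle brown fat (SD, n = 5 each). Without mice 95 and 82 no gene of the 10 was called on either day, where 0.951% and 1.09% of all genes were. Troglitazone mouse 55 of day 15, with pancreas markers at 9.69, was the lowest of its group in Acaca (13.87), Acacb (13.24) and Scd2 (11.03). The part of muscle and pancreas markers in the brown fat values was not tested.

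The troglitazone effect in brown fat was below that in liver for all 10 genes on both days, with median differences of effect of -0.39 on day 15 and -0.27 on day 29. None passed the test, where 0.022% and 0.0165% of all genes did, and the smallest adjusted p by limma was 0.0855 for Scd1 on day 15 (-0.36 ± 0.08, SE). At an unadjusted p below 0.05 stood 2 genes on each day, with 3.19% and 5.4% of all genes. Without brown fat mice 82 and 95, Scd1 passed on day 15 (-0.36, adjusted p = 0.0237) and Acacb on day 29 (-0.80, adjusted p = 0.0297), where 0.115% and 0.269% of all genes passed. By the second Scd1 probe set the effect on day 15 was lower by 1.09 ± 0.18 in brown fat than in liver (limma adjusted p = 0.00818 over all probe sets, 0.0258% of which passed). Leaving out any 1 of the 20 arrays kept the call. In brown fat of day 15 that probe set read 14.50 to 14.78 and the brighter one 14.85 to 15.00. Both lay near the highest log2 value of 15.27, and the part of this in the Scd1 differences of effect was not tested.

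In liver after Elmiron the differences ran both ways. The differences were above 0 for 4 genes on day 15 and for 5 on day 29, with medians of -0.04 and -0.05, and no gene was without overlap on either day (1.06% and 1.43% of all genes were). Scd2 gave the largest difference of day 15, at a level near the array medians that is not shown to be above background. It read 6.64, 7.32, 6.85, 7.29 and 7.37 in Elmiron livers, against 6.55, 6.45, 6.35, 6.96 and 6.66 in vehicle livers, which overlapped, with a difference of 0.50 ± 0.17 (SE, limma adjusted p = 0.756). On day 29 Me1 read 11.05, 12.28, 12.60, 12.27 and 12.36 in Elmiron livers, against 12.54, 12.65, 12.46, 12.58 and 12.46 in vehicle livers. The Me1 difference of -0.42 ± 0.19 (adjusted p = 0.59) was -0.16 without mouse 91, at 11.05. That mouse was also the lowest of its group in Acly (11.43), Scd1 (13.06), Elovl6 (9.15) and Fasn (10.52), and its hepatocyte markers were within the range of the other livers. Its epithelium and erythroid markers, at 8.89 and 7.99, were the lowest of all livers of both studies. Its adipocyte markers, at 7.22, were exceeded among livers only by mouse 92 of its group, at 7.77. Mouse 92 also had brown adipocyte markers at 7.89, against at most 7.08 in the other livers. Its Fasn, 11.84, was the highest of that group. The part of these markers in the values of both mice was not tested.

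Between the compounds, the liver effect of troglitazone was above that of Elmiron for 9 of 10 genes on each day, with median differences of 0.34 and 0.36. None passed the test (0.0055% and 0.0934% of all genes did), and the largest was that of Thrsp on day 29, at 1.31 with a 95% confidence interval of 0.38 to 2.25 (limma adjusted p = 0.278). For Fasn the interval ran from -0.34 to 1.04 on day 15 and from -0.58 to 0.80 on day 29, which leaves room for differences in either direction. The vehicle livers of the troglitazone study were above those of the Elmiron study for all 10 genes, by 0.10 to 0.39, with none called (0% of all genes).

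In white fat, fenretinide moved none of the 10 genes by the test, in the pair of comparisons that had the most called genes among the 8 of agent with vehicle. The differences ran from -0.54 to 0.52 on day 15 (median 0.05, all genes -0.04) and from -0.30 to 0.62 on day 29 (median 0.01, all genes -0.02). The day 15 signs depend on the scaling. With each array centred on its median the median over all genes was -0.196 in place of -0.042, the share of higher genes among those called was 23.9% in place of 82.8%, and Fasn gave -0.07 and Scd1 -0.14, still with none of the 10 called. Fasn read 14.37, 14.71 and 14.28 in fenretinide white fat on day 15, against 14.43, 14.61 and 14.08 in vehicle white fat, with a difference of 0.08 (95% confidence interval -0.22 to 0.38). Fasn of day 29 read 14.50, 14.66, 14.50 and 14.66 in fenretinide white fat, against 14.52, 14.47, 14.62 and 14.66 in vehicle white fat, with a difference of 0.01 (-0.25 to 0.27). Changes of Fasn beyond those bounds are outside the intervals. Scd1 had intervals of -0.15 to 0.18 and -0.11 to 0.17 by its brighter probe set, at 14.84 to 15.04 in white fat, near the top of the scale. Its second probe set read 14.51, 14.83 and 14.12 in fenretinide white fat on day 15, against 14.43, 14.46 and 14.37 in vehicle white fat. On day 29 the second probe set read 14.63, 14.67, 14.62 and 14.82, against 14.12, 14.46, 14.56 and 14.63. The intervals do not bound the change by that probe set.

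Acacb ran in opposite directions on the 2 days in white fat. On day 15 it read 10.63, 10.25 and 10.49 in fenretinide white fat, against 11.34, 10.70 and 10.97 in vehicle white fat. The groups were apart, as for 27.9% of all genes, and the difference was -0.54 ± 0.33 (SE, limma adjusted p = 0.39). On day 29 it read 11.33, 12.63, 11.33 and 11.41 in fenretinide white fat, against 10.70, 10.71, 11.54 and 11.28 in vehicle white fat, which overlapped, as all 10 genes did (8.75% of all genes did not), with a difference of 0.62 ± 0.29 (adjusted p = 0.336). The value of 12.63 was that of mouse 93, the library with brown adipocyte markers at 11.78. The effect differed between the days by 1.16 ± 0.44, which did not pass (adjusted p = 0.233, 1.33% of all genes passed), by 1.17 ± 0.26 without mice 93, 95, 85 and 86 (adjusted p = 0.118), and by 1.17 ± 0.31 without mouse 91 as well (adjusted p = 0.184), which leaves 1 treated mouse on day 29, assumed to vary like the other groups. In brown fat and in both liver sets none of the 10 effects differed between the days by limma (0% of all genes), and at an unadjusted p below 0.05 stood 2 of the 10 in Elmiron livers and 0 in the other sets, where 1.14% to 7.49% of all genes did.

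Elovl6 was the least even of the genes in fat. In fenretinide white fat it read 10.48, 11.12 and 10.17 on day 15, against 9.63, 11.49 and 9.70 in vehicle white fat. On day 29 it read 11.84, 13.21, 10.06 and 12.86 in fenretinide white fat, against 11.05, 10.32, 12.52 and 12.78 in vehicle white fat. The highest values of day 29 were those of mice 93 and 95 among the treated and 86 and 85 among the vehicle mice. All 4 are libraries with markers of brown fat or liver. The difference of 0.33 on day 29 was 0.27 ± 0.73 (SE) without these 4. It was -0.63 without mouse 91 as well, which leaves a single treated mouse. In brown fat Elovl6 read 11.22 in troglitazone mouse 95 and 10.80 in vehicle mouse 82, against 13.72 to 14.11 in the other 18 arrays. Acacb did likewise, at 11.33 and 11.06 in these mice against 13.24 to 13.80 in the others, whereas Fasn was at 14.63 and 14.44 against 14.51 to 14.81. The part of tissue mixture in the Elovl6 and Acacb values was not tested.

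**Figure D3:**
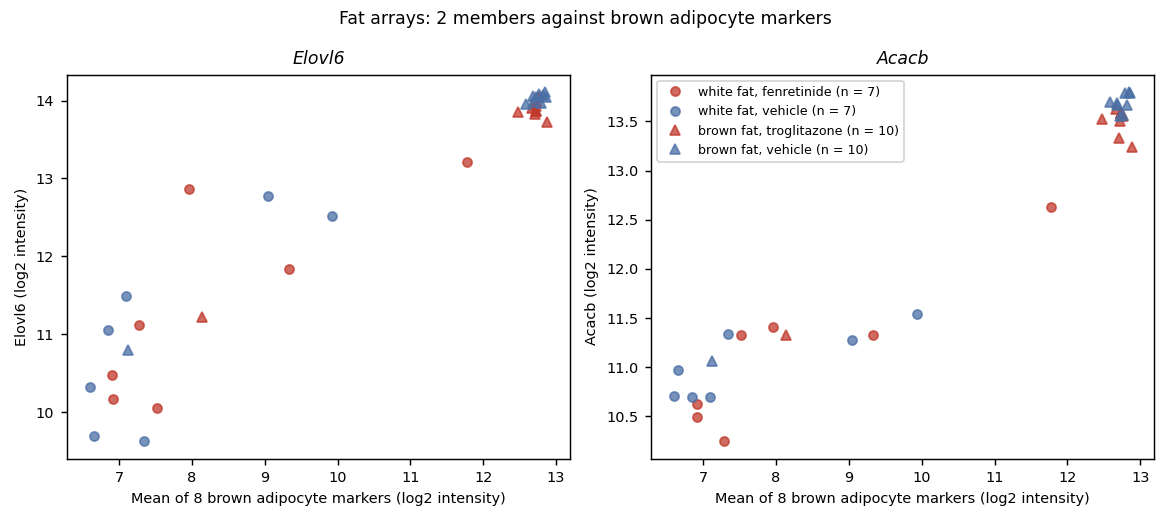
Log2 intensity of Elovl6 and Acacb in each fat array against the mean of 8 brown adipocyte markers in the same array, with fenretinide white fat and vehicle white fat (7 arrays each) and troglitazone brown fat and vehicle brown fat (10 arrays each). The brown fat arrays of mice 95 and 82 lie with the white fat arrays, at Elovl6 values of 11.22 and 10.80.

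The levels of these genes differed between tissues. In vehicle mice of the troglitazone study, all 10 genes were higher in brown fat than in liver by the test, where 31.6% of all genes were higher and 76.1% were called in either direction. Scd2, a desaturase known mainly from brain, averaged 12.34 ± 0.38 in brown fat and 6.83 ± 0.39 in liver (SD, n = 10 each). Its liver level lay at the array medians and is not shown to be above background, so no fold is given. Fasn averaged 14.68 ± 0.10 in brown fat and 11.63 ± 0.39 in liver, 8.268-fold apart. The differences of the carboxylases Acaca and Acacb were 3.87 and 3.78, that of Elovl6 was 3.15, that of Acly 2.13, that of Thrsp 2.09, that of Me1 1.57 and that of Srebf1 1.01. Scd1 had 0.65 by its brighter probe set, near the top of the scale, and 2.30 by its second probe set. Its place in this order thus depends on the probe set. These differences include brown fat of vehicle mouse 82 of day 29, at 13.18 for Acaca, 11.06 for Acacb and 10.80 for Elovl6. The others of its group read 14.18 to 14.33, 13.67 to 13.80 and 13.97 to 14.11. The differences and their order without that array are not given here. The median over the 10 genes was 2.59, against -0.13 over all genes, and limma adjusted p-values ran from 1.62e-25 to 2.36e-11.

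Brown fat was higher than white fat of vehicle mice for 7 of the 10 genes, where 28.8% of all genes were higher and 58.3% were called, though tissue and study cannot be told apart here. Elovl6 averaged 13.71 ± 1.03 in brown fat (n = 10) and 11.07 ± 1.27 in white fat (n = 7), and Acacb 13.43 ± 0.84 in brown and 11.03 ± 0.35 in white fat (SD). The fitted differences were 2.74 and 2.40, and 3.56 and 2.84 without brown fat mice 95 and 82 and white fat mice 93, 95, 85 and 86. Acaca, Acly and Me1 were higher by 0.84, 0.78 and 0.52, and Thrsp and Fasn by 0.25 and 0.21. The Fasn call was lost without white fat vehicle mouse 50 (0.14, limma adjusted p = 0.0815). Scd1 (0.03), Scd2 (0.24) and Srebf1 (0.03) did not pass.

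Over the 16 groups, the order of levels was mostly a step between fat and liver. For Fasn, arrays read 14.44 to 14.81 in brown fat, 14.08 to 14.71 in white fat and 10.52 to 12.51 in liver, and neighbouring group means were separated beyond the overlap of their arrays at a single place, between vehicle white fat of day 15 at 14.37 and troglitazone liver of day 29 at 12.13. All fat arrays were above all liver arrays also for Acaca, Acly, Scd1, Scd2 and Thrsp. Acacb, Elovl6, Me1 and Srebf1 overlapped between fat and liver. Group means of Fasn ran from 14.68 in vehicle brown fat of day 15 to 11.10 in vehicle liver of day 29 of the Elmiron study. For Scd2 they ran from 12.70 in vehicle white fat of day 29 to 6.59 in vehicle liver of day 15 of the Elmiron study. For Scd1 a second step separated troglitazone livers of day 29 at 14.58 from vehicle livers of day 29 of the same study at 14.38.

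**Figure D4:**
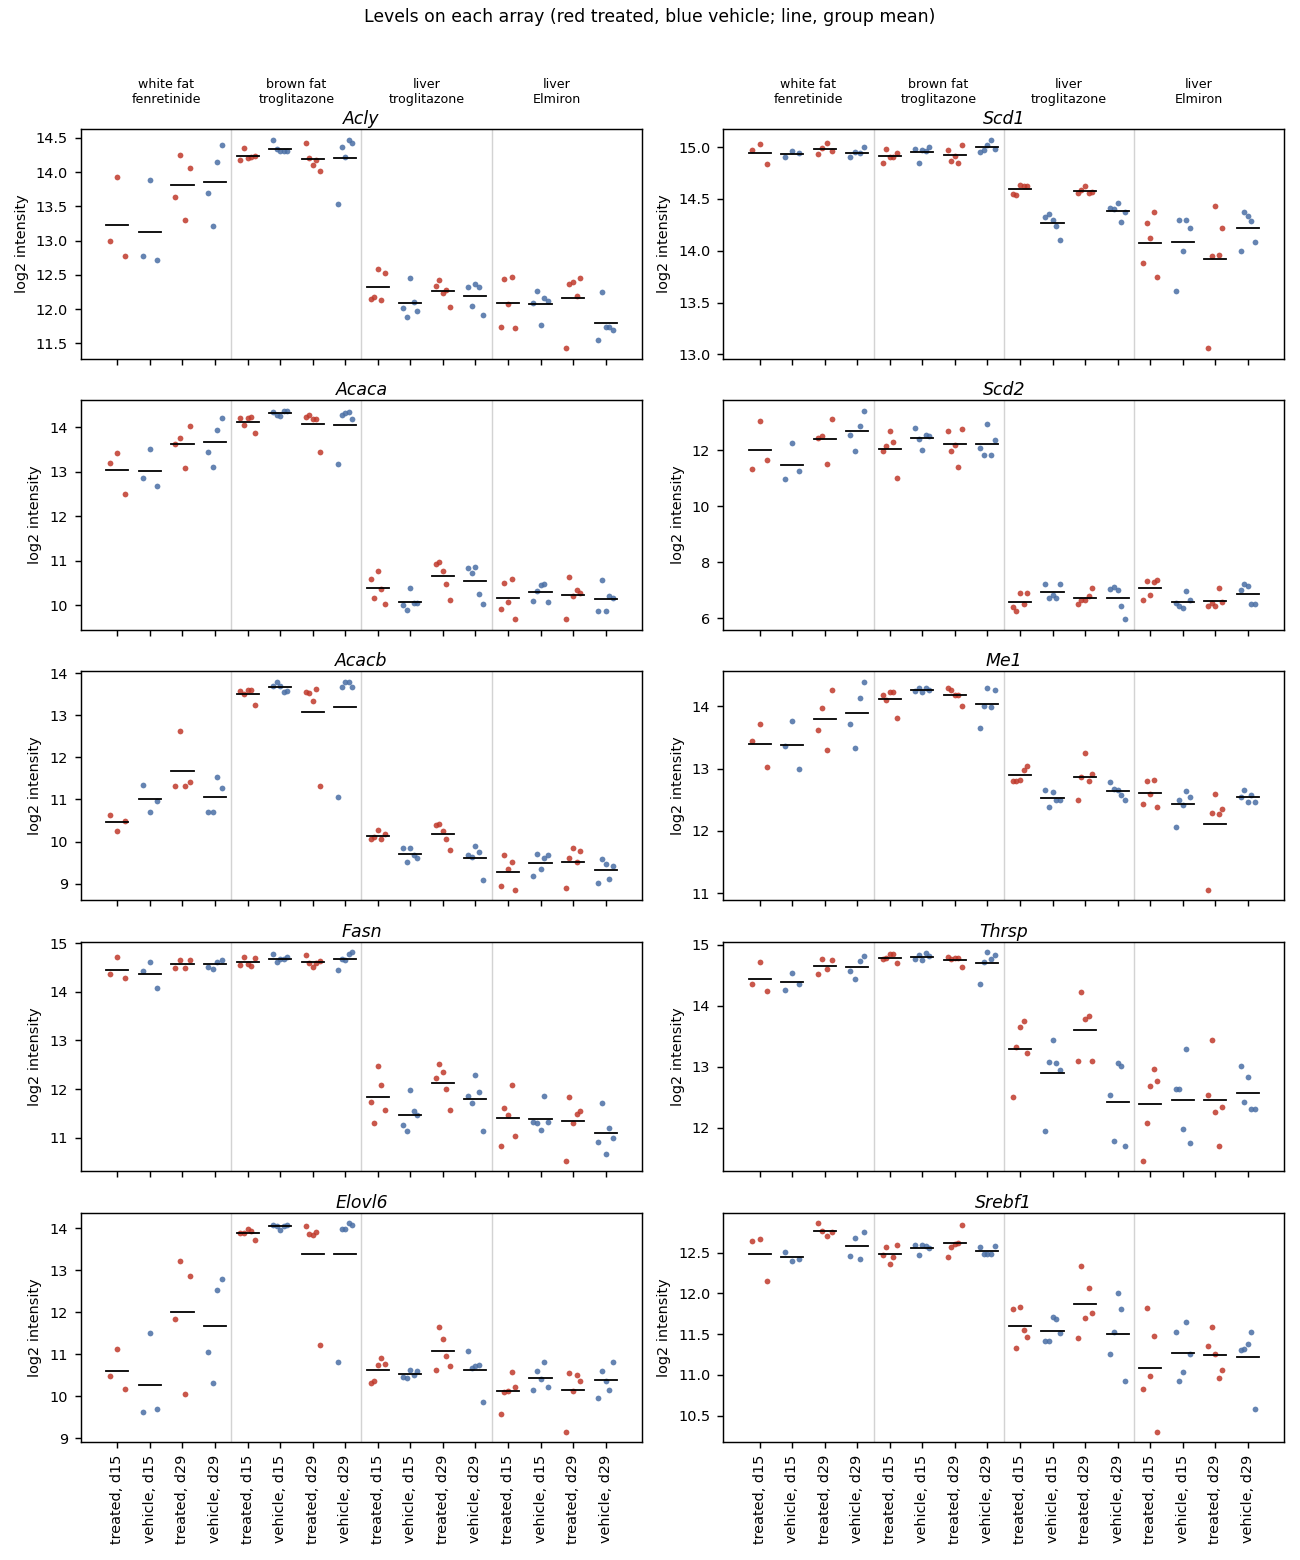
Log2 intensity of each of the 10 genes in every array, 1 panel a gene, over the 16 groups, with treated groups (red) left of their vehicle groups (blue). All fat arrays lie above all liver arrays for Fasn, Acaca, Acly, Scd1, Scd2 and Thrsp.

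Mice of one group differed in these genes, by an amount that depended on the gene and the tissue. The SD of Fasn within groups was 0.39 in livers of the troglitazone study and 0.42 in livers of the Elmiron study, where the median over all genes was 0.18 and 0.19. In brown fat it was 0.10, against 0.21, and in white fat 0.17, against 0.17. Fasn lay near the top of the scale in fat, and the part of this in its SD there was not tested. Other genes varied more in white fat, with SDs of 1.13 for Elovl6, 0.71 for Scd2, 0.54 for Acly and 0.45 for Acaca. By its brighter probe set, near the top of the scale, Scd1 varied less than the median gene in livers of the troglitazone study, at 0.07. In vehicle livers of day 15 of that study the brighter probe set ran from 14.10 to 14.35, and the second from 11.89 to 12.61. The relation of each gene to Fasn was measured on deviations from the group means, with a permutation test within groups, two-sided, adjusted over 36 relations in 4 tissue sets. Of the 9 other genes, 6 passed in each liver set and in white fat, and 2 in brown fat, by Pearson's r and by Spearman's rho alike. Many genes were as close to Fasn as the weakest of those that passed by r: 4.85% of all genes in livers of the troglitazone study, 6.71% in those of the Elmiron study, 3.49% in white fat and 6.86% in brown fat.

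Acaca had the highest Pearson's r with Fasn in both liver sets, while by rho Acly was higher in the Elmiron study. In troglitazone-study livers (n = 20) Acaca had r = 0.816 (permutation adjusted p = 0.00228) and rho = 0.811 (adjusted p = 0.00174), and r = 0.747 without the 2 mice farthest from the median of Fasn. In Elmiron-study livers (n = 20) it had r = 0.881 (permutation adjusted p = 0.0018) and rho = 0.853 (adjusted p = 0.00108), and r = 0.822 without those 2. Acly had r = 0.735 and 0.854 and rho = 0.684 and 0.872 in these sets. Elovl6 (r = 0.662 and 0.748) and Acacb (0.752 and 0.664) passed in both sets too. Thrsp and Srebf1 passed in the troglitazone study (r = 0.644 and 0.648) but not in the Elmiron study (0.33 and 0.429), and Scd1 and Me1 passed in the Elmiron study (0.644 and 0.692) but not in the troglitazone study (0.209 and 0.196). Whether the studies differ in these relations was not tested. Without the 2 farthest mice, r of Scd1 in the Elmiron study was 0.435. Scd2 passed in neither. With quantile normalization, r of the 6 genes that passed ran from 0.55 to 0.765 in the troglitazone study and from 0.627 to 0.875 in the Elmiron study, not tested again.

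**Figure D5:**
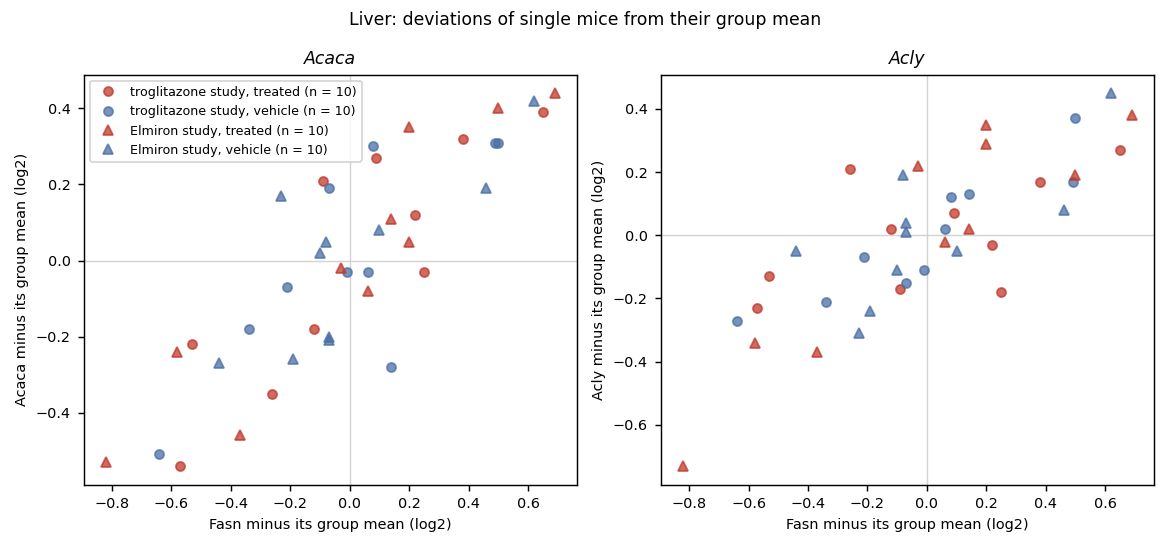
Deviation of Acaca and of Acly from the group mean against that of Fasn (log2 units) in each of the 40 livers of the troglitazone and Elmiron studies. The points rise together, with r from 0.735 to 0.881 within the sets of 20 livers.

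In white fat (n = 14) Acly had the closest relation to Fasn, with r = 0.856 (permutation adjusted p = 0.00228) and rho = 0.877 (adjusted p = 0.00174), and r = 0.873 without the 2 farthest mice. Me1, Acaca, Thrsp, Scd2 and Elovl6 passed with r from 0.654 to 0.797, and r was 0.616 to 0.865 for these 5 genes without mice 93, 95, 85 and 86, and 0.735 to 0.9 without mouse 91 as well. In brown fat (n = 20) Acly (r = 0.845, permutation adjusted p = 0.00237, rho = 0.722) and Scd1 (r = 0.582, adjusted p = 0.0159, rho = 0.68) passed, with r = 0.846 and 0.632 without mice 82 and 95. Acaca had r = 0.41 in brown fat, and -0.399 without these 2 mice. With quantile normalization, r in brown fat was 0.75 for Acly and 0.482 for Scd1, and ran from 0.621 to 0.852 for the genes that passed in white fat.

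The genes outside the list whose group means lay closest to those of Fasn over the 16 groups were Triobp (r = 0.995), Pgd (0.994), Mbnl2 (0.994), Rtn4 (0.993) and Cd36 (0.993), where the median over all genes was -0.429. These points share the step between fat and liver. Of the list, Acaca had r = 0.986 and ranked 95th, Scd2 0.984 and 139th, and the other 7 ranked from 318th (Srebf1, 0.979) to 4451st (Elovl6, 0.733). Over the 40 livers with group means removed, Acaca itself ranked first (r = 0.849), followed by Snd1 (0.819), Copz1 (0.816), Ipo9 (0.813), Sf3a1 (0.804) and Nars (0.8), with Acly ranked 10th (0.796), the other 7 of the list from 168th (Elovl6, 0.71) to 3836th (Scd2, 0.322), and a median of -0.023 over all genes. Libraries and array processing are shared by all genes of an array, and no test was made of these likenesses.

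Genes around the pathway were read from 4 lists: acetyl-CoA and NADPH supply (12 of 14 measured), elongation and desaturation (13 of 14), triglyceride assembly (14 of 15) and regulators of lipogenesis (21 of 22). Calls against vehicle occurred in white fat alone of the 8 comparisons. On day 15, 1 elongation and desaturation gene and 1 regulator were higher, where 3.27% of all genes were, and 1 regulator was lower, where 0.682% were. On day 29, 1 regulator was lower, where 0.929% were. The fenretinide effect was lower on day 29 than on day 15 for 1 regulator by the test, as for 231 of the 18193 genes. None of the supply or triglyceride genes was called. In liver after troglitazone the medians of the 4 lists were between -0.04 and 0.08 on the 2 days, against 0.32 and 0.29 for the 10 genes.

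Fads2, the desaturase that starts the synthesis of long polyunsaturated fatty acids, read 10.02, 10.27 and 12.30 in fenretinide white fat on day 15, against 7.90, 8.10 and 8.02 in vehicle white fat. It rose by 2.86 ± 0.47 (SE, limma adjusted p = 0.00391), with mouse 59 at 12.30 well above the other 2, and remained called without any 1 array (2.14 to 3.28). Mid1ip1, a relative of Thrsp that helps acetyl-CoA carboxylase to polymerise, read 12.28, 12.46 and 12.21 in fenretinide white fat, against 10.77, 10.90 and 10.77 in vehicle white fat, and rose by 1.5 ± 0.28 (adjusted p = 0.0099). Both rises came in the libraries with epithelium markers at 9.51 to 10.76, and the part of those markers in them was not tested. On day 29 neither gene was called. Mid1ip1 then read 11.21, 11.57, 10.78 and 11.55 in fenretinide white fat, against 11.28, 11.42, 11.92 and 12.56 in vehicle white fat. The vehicle value of 12.56 was above every fenretinide value of day 15. Fads2 then read 8.58, 8.47, 8.65 and 9.51 in fenretinide white fat, against 8.22, 8.14, 8.42 and 8.88 in vehicle white fat.

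Insig2, which holds SREBP proteins in the endoplasmic reticulum, was lower after fenretinide on both days. It read 10.57, 10.65 and 10.61 in fenretinide white fat on day 15, against 11.16, 11.08 and 11.25 in vehicle white fat, and fell by 0.55 on the log2 scale (SE 0.08, limma adjusted p = 0.00102). On day 29 it read 10.66, 10.75, 10.78 and 10.81 in fenretinide white fat, against 11.13, 11.11, 11.10 and 11.19 in vehicle white fat, and fell by 0.38 (SE 0.07, adjusted p = 0.0205). The groups were apart on both days. Both changes were under 1.5-fold. Adipocyte markers averaged 13.27 to 13.38 in fenretinide against 13.59 to 13.69 in vehicle white fat on day 15, and 13.39 to 13.49 against 13.51 to 13.60 on day 29, and epithelium markers were higher on day 15, as above. The part of these markers in the Insig2 values was not tested. The day 29 call was lost without fenretinide mouse 94 or vehicle mouse 81 or 83 (adjusted p = 0.0513 to 0.0537) and without mice 93, 95, 85 and 86 (-0.40, adjusted p = 0.182) or these and mouse 91 (-0.34, adjusted p = 0.344), whereas the day 15 call was kept in both fits.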

How the data were processed

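RNA of white fat, brown fat and liver was measured on 74 Affymetrix mouse arrays, 1 per mouse and tissue. Per the submitters' processing notes the authors used RMA (robust multi-array averaging), and the deposited values are its output as linear intensity. Which RMA version and which arrays it covered together is not given in the sources used here. The deposited intensity ran from 7.44 to 39426, and its log2 was taken here.

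Of 45101 probe sets, 34945 had a single symbol, 932 several, 9160 none and 64 were controls. A gene was represented by its single-symbol probe set with the highest mean over all arrays (18193 genes). Replicates are distinct mice by their numbers in the labels, and the number of arrays limits the precision. Groups came from the labels, which give no batch.

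Tests used limma 3.58.1 in R 4.3.3 (lmFit, eBayes) within a tissue and study, with 1 mean per group, Benjamini-Hochberg adjustment over all genes and a threshold of 0.05. Differences of effect used both sets of groups. A further fit used every single-symbol probe set. The fit was checked on simulated data. Changes are treated minus vehicle with their SE, and group values are means ± SD. Covariation with Fasn used deviations from group means and 100000 permutations within groups. Marker values are means of log2 over a list. Python 3.11.15, numpy 2.4.6, pandas 2.3.3, scipy 1.17.1 and matplotlib 3.10.9 made tables and figures. Promoter windows and positions come from RefSeq tables of GRCm38.p6.

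The 10 genes, the 4 pathway lists and the marker lists were chosen with earlier results of these data known. Named genes were the 10 genes in every comparison, up to 3 called genes per list and comparison with the largest change, the 5 nearest to Fasn, and markers set beside a result. Of the lists, G6pdx, Scd4, Acsl1, Nr1h2 and a further gene were not analysed here. Alternatives were quantile normalization, median centring, a filter that drops the dimmer 50% of genes, mean values over probe sets, tests of every probe set, array weights, eBayes with trend and robust, only the compared groups in the fit, a further threshold of 1.5-fold, vehicle livers of the other study, a block for the animal, and each array left out in turn. Fits without brown fat mice 95 and 82, and without white fat mouse 91 beside the other 4, were added after seeing the data. Brown fat and liver of the troglitazone study share mice by the labels, and the correlation within animals was -0.0448.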

Additional observations from a re-analysis of the deposited data

Results flagged for a closer look

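In 19 of the 140 sets of 4 or 5 arrays checked (13.6%), the highest or lowest array of a group stood apart from the rest, where chance gives about 5%. Of these, 9 were brown fat arrays of 2 mice of day 29 or the white fat array of fenretinide mouse 93, libraries with markers of other tissues. In brown fat troglitazone mouse 95 read 13.45 for Acaca (others 14.19 to 14.27), 11.33 for Acacb (13.33 to 13.63), 11.22 for Elovl6 (13.83 to 14.05) and 14.63 for Thrsp (14.77 to 14.80). Vehicle mouse 82 read 13.18 for Acaca (14.18 to 14.33), 11.06 for Acacb (13.67 to 13.80), 13.53 for Acly (14.22 to 14.46) and 10.80 for Elovl6 (13.97 to 14.11). White fat of fenretinide mouse 93 read 12.63 for Acacb (11.33 to 11.41).

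In brown fat of day 15, troglitazone mouse 55 read 13.24 for Acacb (others 13.5 to 13.59), vehicle mouse 41 read 14.47 for Acly (14.30 to 14.33), vehicle mouse 43 read 13.95 for Elovl6 (14.05 to 14.08) and vehicle mouse 42 read 12.47 for Srebf1 (12.56 to 12.60).

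In livers of the Elmiron study, Elmiron mouse 91 of day 29 read 11.43 for Acly (others 12.19 to 12.46) and 11.05 for Me1 (12.27 to 12.60), and Elmiron mouse 94 read 7.07 for Scd2 (6.43 to 6.59). Vehicle mouse 46 of day 15 read 11.85 for Fasn (11.16 to 11.32). Vehicle mice 82 and 85 of day 29 read 12.25 for Acly (11.55 to 11.74) and 10.58 for Srebf1 (11.31 to 11.52).

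The effect of troglitazone on the second Scd1 probe set differed between tissues on day 15, by -1.09 in brown fat relative to liver (limma, adjusted p = 0.00818 over all probe sets). Its own changes were -0.11 in brown fat and 0.98 in liver. In brown fat of day 15 it read 14.50 to 14.78, near the top of the scale, and the part of this in the difference was not tested.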

How the results depend on the processing

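The count of called genes among the 10 stayed at 0 in white fat, in brown fat, in Elmiron livers, between days, between the 2 compounds and between the vehicle livers of the 2 studies, and at 10 for brown fat against liver, under every alternative run. In liver after troglitazone on day 15 it became 1, Scd1, when the dimmer 50% of genes were left out (adjusted p = 0.0423), with quantile normalization (0.0435), with averaged probe sets (0.00572), with trended and robust eBayes (0.000427) and with array weights (0.00932). On day 29 it became 1, Acacb, with quantile normalization (0.0135) and array weights (0.034), and 2 with the other study's vehicle livers (Fasn 1.03, adjusted p = 0.0386, and Acacb 0.87, adjusted p = 0.00447). For the troglitazone effect in brown fat against liver it became 1 on day 15 without the dimmer 50% of genes, with quantile normalization, averaged probe sets, trended and robust eBayes, the compared groups alone or without brown fat mice 82 and 95, and 2 with array weights. On day 29 it became 1 with array weights and without those mice. Brown against white fat kept 4 of 7 with the 1.5-fold threshold, and median centring and averaged probe sets gave 8. The causes were not tested.

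Leaving out 1 array gave 0 to 1 in liver after troglitazone on day 29, 10 in brown fat against liver, 6 to 7 in brown against white fat and 0 in the other 16 comparisons. With the animal as a replicate block the counts stayed at 0, 0 and 10. For treated against vehicle mice no paired analysis was possible because the groups share no animals.

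Over all genes, calls moved with array weights (436 in place of 21 in liver after troglitazone on day 29, 912 in place of 17 for troglitazone against Elmiron on day 29) and median centring (2308 in place of 719 in white fat on day 15), without brown fat mice 95 and 82 (173 and 198 in place of 11 and 10 in brown fat), without white fat mice 91, 93, 95, 85 and 86 (8 in place of 244 in white fat on day 29) and with the 1.5-fold threshold (6319 in place of 13851 in brown fat against liver). Fads2 was not called with the compared groups alone (adjusted p = 0.0666), nor was Insig2 on day 29 (0.07), and Insig2 passed the 1.5-fold threshold on neither day. Single-gene results numbered 4573 on the same side of the threshold, 266 that changed sign without a call, 22 newly called and 17 no longer called, with none reversed. With 3 to 5 mice a group, differences within the intervals given could not be told from 0.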
